A study of Mus musculus with 8 samples.

Results

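Striatal projection neuron genes are described here in the cortex of APP/PS1 mice given bexarotene or vehicle. The genes are 9 of the 22869 symbols in the deposited count table: Ppp1r1b, Rgs9, Drd2, Adora2a, Penk, Tac1, Pde10a, Pde1b and Gpr6. They were chosen by symbol, with their values in these libraries already known, and each is represented by its transcript row with the highest mean count. All 9 passed the filter on low counts and were among the 16069 genes tested. Because the choice used these same libraries, the levels and fold changes of the 9 genes are a description and carry no test of their own.

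All 8 libraries came from cortex of C57BL/6 mice of the APP/PS1 genotype, in which transgenes lead to amyloid plaques, and no library without the transgenes was used here. Mice of 4 libraries were treated with the retinoid X receptor agonist bexarotene, those of the other 4 with glycerol at 0.2 mg/kg, called vehicle below. The sources used here state no bexarotene dose or duration, no age or sex and no number of animals per library. P-values therefore measure the spread between these libraries, and how much of it is technical is not known. Sex-chromosome transcripts, given below, differ between libraries, so the libraries are not all repeats of the same RNA sample.

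Striatal projection neurons, also called medium spiny neurons, are the inhibitory output cells of the striatum, which lies directly beneath the cortex. Those of the direct pathway carry dopamine D1 receptors and make substance P, while those of the indirect pathway carry dopamine D2 receptors and the adenosine receptor encoded by Adora2a and make enkephalin. In both, these receptors act on cyclic AMP, and phosphodiesterases, a regulator of G protein signalling and the phosphatase inhibitor DARPP-32 shape that signal. The genes are strongly expressed in striatum, and several, among them Pde1b, Ppp1r1b and Penk, are also made at lower levels in cortex.

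Total counts over all rows ranged from 42413825 to 76542067 per library. Levels are given in CPM, counts per 1000000 of a library's tested reads after TMM scaling. On the first principal component, which held 43.6% of the variance of log2 CPM, replicates 1 and 3 of both groups lay on the negative side and replicates 2 and 4 on the positive side. Transcripts of the sex chromosomes were also uneven: Xist, from the inactive X, and a sum of 4 genes on the Y (Uty, Kdm5d, Eif2s3y, Ddx3y). In bexarotene libraries Xist was at 84.7 to 218 CPM and the Y-linked sum at 9.81 to 88.5 CPM, so each had both. Vehicle replicates 1 and 3 had Xist (248 and 307 CPM) with at most 0.282 CPM of the Y-linked sum, and vehicle replicates 2 and 4 had 134 and 141 CPM of that sum with at most 0.861 CPM of Xist. The labelled cortex was checked against its markers: all 16 genes of a cortical excitatory neuron list were detected in every library, with Slc17a7, the vesicular glutamate transporter of cortical neurons, named after its values were seen, at 960 to 1510 CPM.

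A set of 3 libraries held the highest level of all 9 genes, and they belonged to both groups. Bexarotene replicate 1 was highest, bexarotene replicate 3 next and vehicle replicate 1 after it, in this order for 9 of 9 genes. Across all 16069 genes tested, the same 3 libraries were the 3 highest in 7.62%, and in this order in 332 genes. Counts ranged from 16 to 20623 reads per gene and library. In a dissected tissue, fewer cells of a type and less RNA per cell cannot be told apart.

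**Figure D1:**
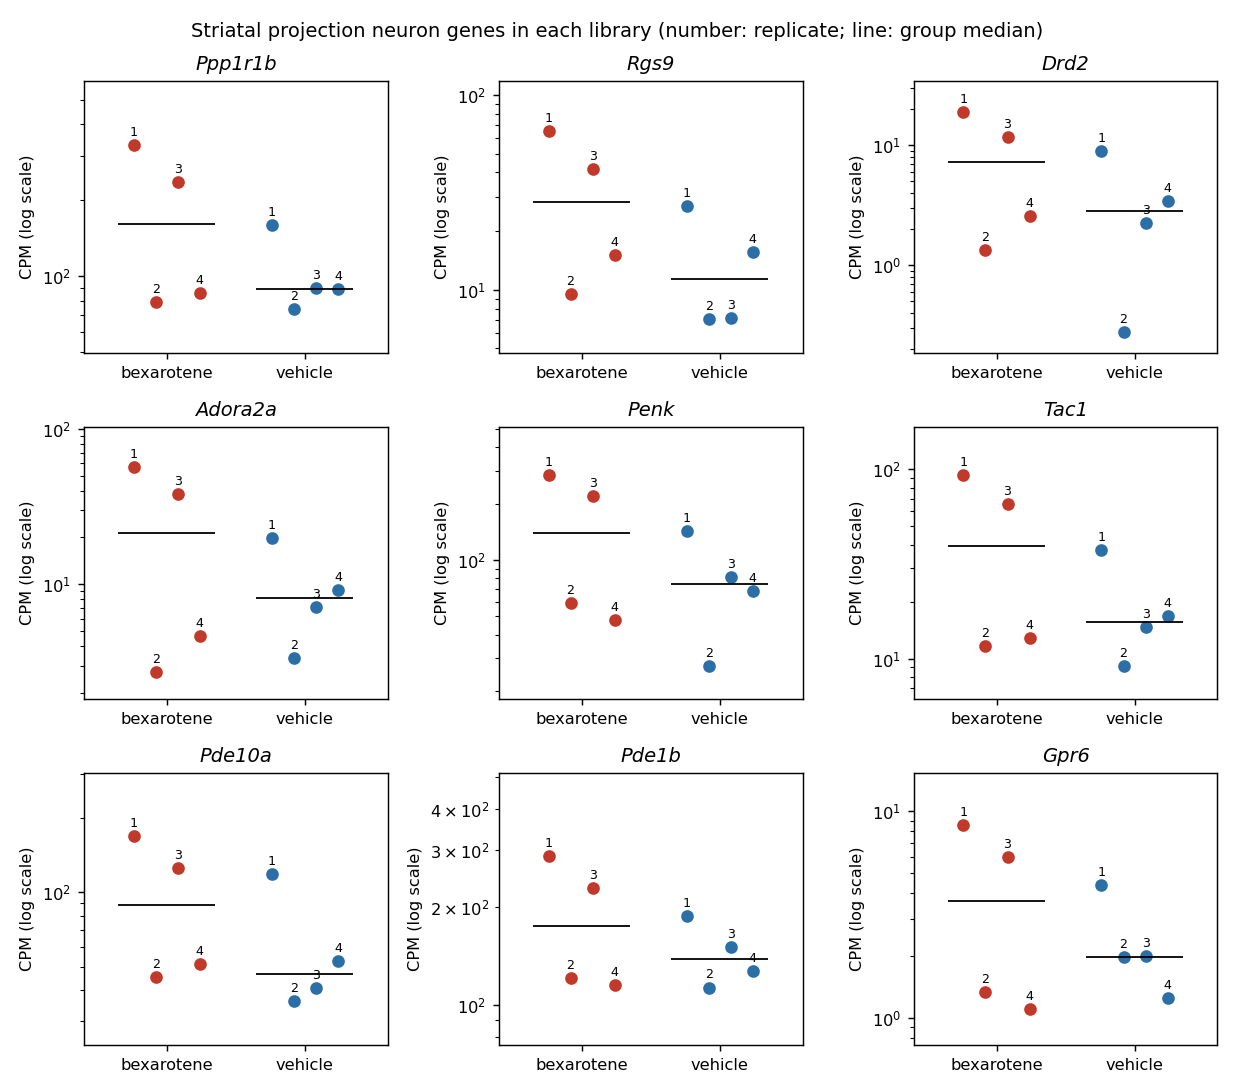
CPM of each gene on a log axis, with 1 point per library, its replicate number beside it and a line at the group median. Bexarotene replicates 1 and 3 and vehicle replicate 1 sit above the other 5 libraries in all 9 panels, and the groups overlap in each.

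The 3 receptors of the set are all expressed by neurons of the indirect pathway. Drd2 (row NM_010077) encodes the D2 dopamine receptor, which lowers cyclic AMP. Its level was 19.1 CPM in bexarotene replicate 1, 1.33 in replicate 2, 11.8 in replicate 3 and 2.58 in replicate 4. The vehicle libraries, in the same order, had 9.05, 0.276, 2.26 and 3.43 CPM. The lowest value rests on 16 reads, whose exact 95% Poisson interval, for counting error only, is 0.158 to 0.448 CPM. Drd2 had the widest span of the 9 genes, 69.4-fold between bexarotene replicate 1 and vehicle replicate 2, and the groups overlapped.

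Adora2a (NM_009630) encodes an adenosine receptor that raises cyclic AMP and opposes D2 signalling. The bexarotene libraries had 57.1, 2.74, 38.1 and 4.68 CPM, against 19.7, 3.34, 7.15 and 9.13 CPM in the vehicle libraries, here and below in replicate order. Bexarotene therefore held both the highest and the lowest library, 20.8-fold apart. Gpr6 (NM_199058), an orphan receptor with constitutive activity towards cyclic AMP, was the least abundant of the set per kb of transcript. Gpr6 was measured at 8.55, 1.33, 6.03 and 1.11 CPM under bexarotene, and at 4.40, 1.96, 1.99 and 1.24 CPM after vehicle. Its lowest library was bexarotene replicate 4, and the highest was 7.72 times that.

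Promoter sequence is shown for 3 of the genes, which share their 3 highest libraries. Drd2 and Gpr6 stand for the indirect pathway, and Tac1, the substance P precursor described next, for the direct pathway. RefSeq's table on GRCm38.p6 matched 6 of the 9 genes, the others being Ppp1r1b, Adora2a and Penk. Each line gives the 250 bases before the start site, 5′ to 3′ on the gene's strand: chr9:49340153-49340402 on the plus strand for Drd2, chr6:7554811-7555060 on the plus strand for Tac1 and chr10:41072291-41072540 on the minus strand for Gpr6. The submitters' processing notes name mm9, another build, so these positions serve the sequences only. Capitals mark matches, on either strand, to TGACGTCA, the full cyclic AMP response element, to its half-site TGACG, to the nuclear receptor half-site AGGTCA, to the GC box GGGCGG or to the TATA box TATAAA.
Drd2: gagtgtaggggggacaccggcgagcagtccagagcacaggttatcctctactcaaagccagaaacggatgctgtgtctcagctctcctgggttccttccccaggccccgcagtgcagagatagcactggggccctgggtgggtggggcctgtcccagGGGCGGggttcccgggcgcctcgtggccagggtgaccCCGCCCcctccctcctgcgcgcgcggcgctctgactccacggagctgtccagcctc
Tac1: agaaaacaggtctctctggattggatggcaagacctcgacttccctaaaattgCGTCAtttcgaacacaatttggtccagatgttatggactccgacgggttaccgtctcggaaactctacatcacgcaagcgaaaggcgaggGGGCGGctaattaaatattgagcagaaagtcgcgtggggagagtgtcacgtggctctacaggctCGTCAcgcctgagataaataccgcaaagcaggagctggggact
Gpr6: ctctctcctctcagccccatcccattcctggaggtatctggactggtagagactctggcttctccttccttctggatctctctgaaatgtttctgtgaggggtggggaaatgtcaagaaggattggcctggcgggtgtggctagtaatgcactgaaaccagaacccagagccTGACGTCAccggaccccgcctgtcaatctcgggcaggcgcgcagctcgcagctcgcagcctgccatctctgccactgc
Gpr6 held the full element, which starts 78 bases before the start site and includes the half-site on both strands, and 1.55% of 32851 promoter windows of this length hold it. In the Tac1 window the half-site, read on the opposite strand as CGTCA, began at 197 and 43 bases before the start site; 17.8% of windows hold it. Drd2 had GC boxes at 93 and 56 bases, and Tac1 had a GC box at 107 bases; 32.7% of windows hold this motif. AGGTCA was found in none of the 3 windows and in 14% of all windows. A match is a description of the sequence, not a shown binding site.

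The neuropeptide precursors had the same 3 high libraries as the receptors. Penk (NM_001002927) encodes preproenkephalin, the enkephalin precursor of the indirect pathway. Penk levels were 287, 58.9, 221 and 47.8 CPM with bexarotene, and 144, 27.1, 81.3 and 68.0 CPM with vehicle. Vehicle replicates 3 and 4 exceeded bexarotene replicates 2 and 4. Tac1 (NM_009311), which encodes the precursor of substance P and neurokinin A, had 93.0, 11.7, 65.7 and 12.8 CPM under bexarotene and 37.6, 9.18, 14.6 and 16.8 CPM under vehicle. For both, vehicle replicate 2 was the lowest library, at 10.6-fold below the highest for Penk and 10.1-fold below it for Tac1.

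Of the intracellular signalling genes, Ppp1r1b, Pde10a and Pde1b had the 3 smallest spans of the set, while Rgs9 spanned 9.23-fold. Ppp1r1b (NM_144828) encodes DARPP-32, which inhibits protein phosphatase 1 once protein kinase A has phosphorylated it. The bexarotene libraries showed 329, 78.6, 236 and 85.6 CPM and the vehicle libraries 159, 74.2, 89.4 and 89.0 CPM. Outside the 3 high libraries its level lay between 74.2 and 89.4 CPM, with both groups in that range. Rgs9 (NM_011268) encodes a regulator that speeds the shut-off of inhibitory G proteins downstream of D2 receptors. Under bexarotene Rgs9 had 65.4, 9.46, 41.6 and 15.1 CPM, and under vehicle 26.9, 7.08, 7.17 and 15.6 CPM. Vehicle replicates 2 and 3 were nearly level and lowest. The table has a further Rgs9 row, NM_001165934, with levels close to it: the ratio of the chosen row to it was 0.839 to 1.20, and above 1 in bexarotene replicates 1, 3 and 4. The sources used here do not say how reads were assigned to isoforms.

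The phosphodiesterases end the cyclic nucleotide signal. Pde10a (NM_011866), which hydrolyses cyclic AMP and cyclic GMP and is enriched in striatal projection neurons, was at 169, 45.5, 125 and 51.4 CPM under bexarotene and at 119, 36.1, 41.0 and 52.7 CPM under vehicle. Here vehicle replicate 1 was close to bexarotene replicate 3. Pde1b (NM_008800), which needs calcium and calmodulin, showed 287, 121, 228 and 115 CPM under bexarotene and 188, 113, 150 and 127 CPM under vehicle. Its span of 2.54-fold between the highest and lowest library was the smallest of the 9 genes, followed by 4.44-fold for Ppp1r1b and 4.68-fold for Pde10a.

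Scaled to transcript length, Penk was the most abundant transcript, at a mean of 80.6 CPM per kb over the 8 libraries, followed by Ppp1r1b at 71.3 and Pde1b at 51.7 CPM per kb. Penk exceeded Ppp1r1b in 6 of 8 libraries and Ppp1r1b exceeded Pde1b in 7 of 8, so these neighbours were not separated in every library. Tac1, at 26.6 CPM per kb, lay below Pde1b and above Pde10a in 8 of 8. Pde10a and Rgs9 had 10.3 and 9.67 CPM per kb, and their order held in 6 libraries. Adora2a, at 6.84 CPM per kb, was above Drd2, at 2.45, in 8 of 8, while Drd2 exceeded Gpr6, at 1.86 CPM per kb, in 5.

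Bexarotene and vehicle were compared to ask how treatment changes the transcriptome. All 9 genes had a higher fitted level under bexarotene, with log2 fold changes from 0.38 to 1.39 and a median of 0.94; over all genes tested the median was 0.00092, and 50.2% were positive. For Adora2a the mean was 25.7 ± 26.5 CPM with bexarotene against 9.84 ± 7.02 CPM with vehicle (SD, n = 4), and the fitted log2 fold change was 1.39 ± 1.01 (SE). For Tac1 the means were 45.8 ± 40.3 and 19.5 ± 12.5 CPM (SD, n = 4), with a fitted value of 1.23 ± 0.78 (SE). For Drd2 the log2 fold change was 1.22 ± 1.09 and for Rgs9 1.22 ± 0.71. Penk, Gpr6 and Ppp1r1b had 0.94 ± 0.71, 0.83 ± 0.70 and 0.82 ± 0.51, and Pde10a and Pde1b 0.66 ± 0.55 and 0.38 ± 0.32. Libraries of a group differed widely: the median SD of the 9 genes was 1.31 on the log2 scale within bexarotene and 0.85 within vehicle, against 0.18 and 0.23 for all genes tested.

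Of the 9 genes, 0 were called in edgeR's quasi-likelihood test over all rows, where 0.00622% of genes tested were called. Their adjusted p-values in that test were 0.699 to 0.809, 0 had an unadjusted p below 0.05 (8.77% of all genes tested did), and DESeq2 called 0 of the 7 to which it gave an adjusted p (Drd2 and Gpr6 had none). Over all genes DESeq2 called 97. In 0 of 9 genes did the groups not overlap, against 5.77% of all genes tested. Libraries with the same replicate number, which are not known to be paired, differed in direction. All 9 genes were higher in bexarotene replicate 1 than in vehicle replicate 1 and in bexarotene replicate 3 than in vehicle replicate 3. In the pair of replicates 2, 7 of 9 were higher under bexarotene. In the pair of replicates 4, 0 of 9 were.

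The median log2 difference of the 9 genes was 1.27 among libraries numbered 1 and 3 but 0.014 among those numbered 2 and 4. Bexarotene replicates 1 and 3 held the highest and next-highest level of all 9 genes. This split therefore restates where the high libraries lie. Without bexarotene replicates 1 and 3, an alternative chosen after the values were seen, all 9 fold changes were negative, with a median of -0.58. Because vehicle replicate 1 then remained as the highest library, it was left out too: the median was -0.14, with Rgs9 (0.30 ± 0.40) and Pde10a (0.17 ± 0.16) positive and Adora2a at -0.81 ± 0.44 (SE). With the mean log2 CPM of 28 other striatal identity genes as a covariate, the median was -0.0031 and 4 of 9 were positive. Adora2a then stood at -0.43 ± 0.24 and Rgs9 at 0.31 ± 0.15. In each of these 3 edgeR fits 0 were called and 0 had an unadjusted p below 0.05. The identity list behind the covariate followed the 9 genes across libraries, with Pearson's r of 0.998 between their mean log2 CPM. Fold changes near 0 in the covariate fit therefore follow largely from this choice of covariate and do not test treatment. Without vehicle replicate 1 alone the median was 1.38, and without bexarotene replicate 1 alone 0.45.

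**Figure D2:**
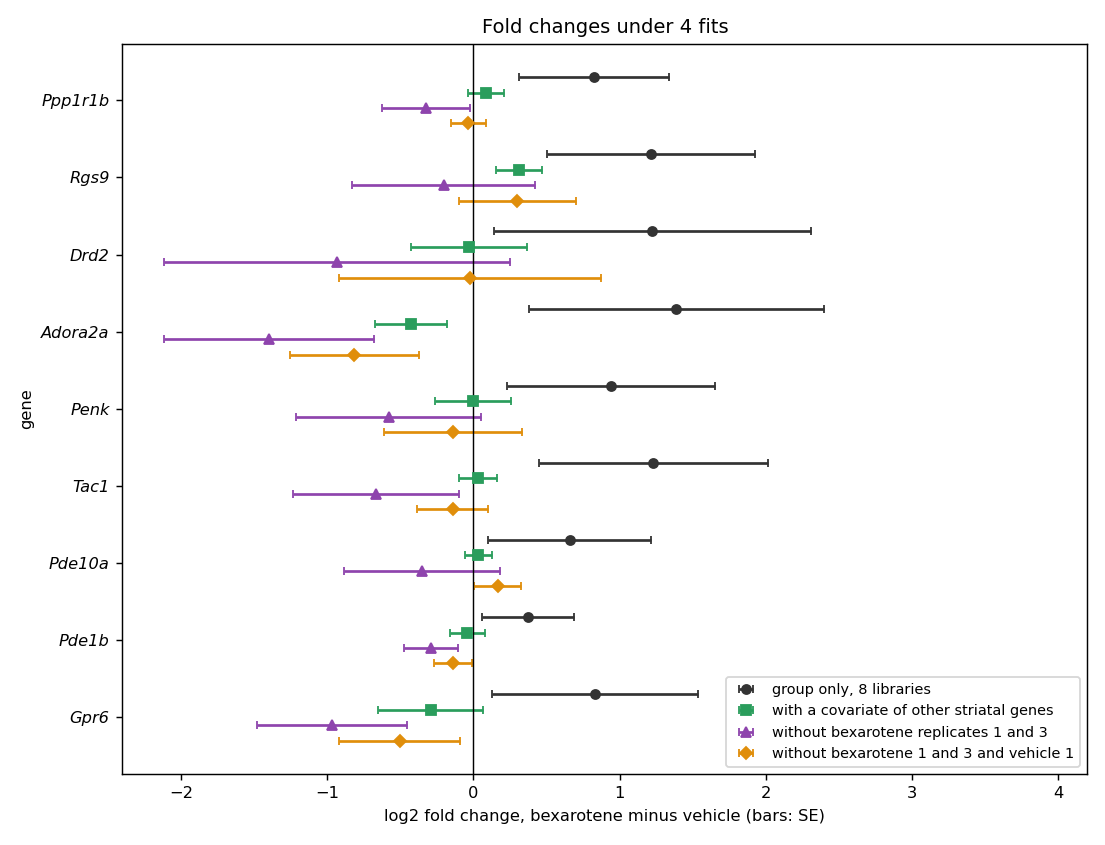
Log2 fold changes, bexarotene minus vehicle, with SE bars for each gene in 4 edgeR fits: all 8 libraries, a covariate made of other striatal genes, and 2 fits that leave out libraries. All 9 points are positive in the fit on all libraries and all 9 are negative without bexarotene replicates 1 and 3.

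The 9 genes moved across libraries together but not in proportion. Over the 36 pairs of genes, Pearson's r of log2 CPM across the 8 libraries was 0.72 to 0.99, with a median of 0.94. After the group means were removed the median was still 0.94. The closest pair was Ppp1r1b with Tac1 (0.99) and the loosest Drd2 with Gpr6 (0.72). These points share libraries and depth, and the values are descriptions.

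Ratios of CPM per kb within a library show where the genes departed from each other. Penk over Tac1, a ratio of the indirect to the direct peptide, was 2.62, 4.27, 2.85 and 3.17 with bexarotene and 3.24, 2.51, 4.72 and 3.45 with vehicle. It spanned 1.88-fold while Penk alone spanned 10.6-fold, and it did not follow the order of the 3 high libraries. Adora2a over Ppp1r1b was 0.134, 0.0269, 0.125 and 0.0422 under bexarotene and 0.0954, 0.0347, 0.0617 and 0.0791 under vehicle. The 3 high libraries were also the 3 highest here, and the lowest was 4.98-fold below. Drd2 over Drd1a, the 2 dopamine receptors of the pathways, was 0.592, 0.158, 0.461 and 0.395 under bexarotene and 0.459, 0.0597, 0.230 and 0.435 under vehicle. This ratio was low in replicate 2 of both groups. Group means overlapped within their spread: 0.402 ± 0.182 under bexarotene and 0.296 ± 0.188 under vehicle (SD, n = 4).

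**Figure D3:**
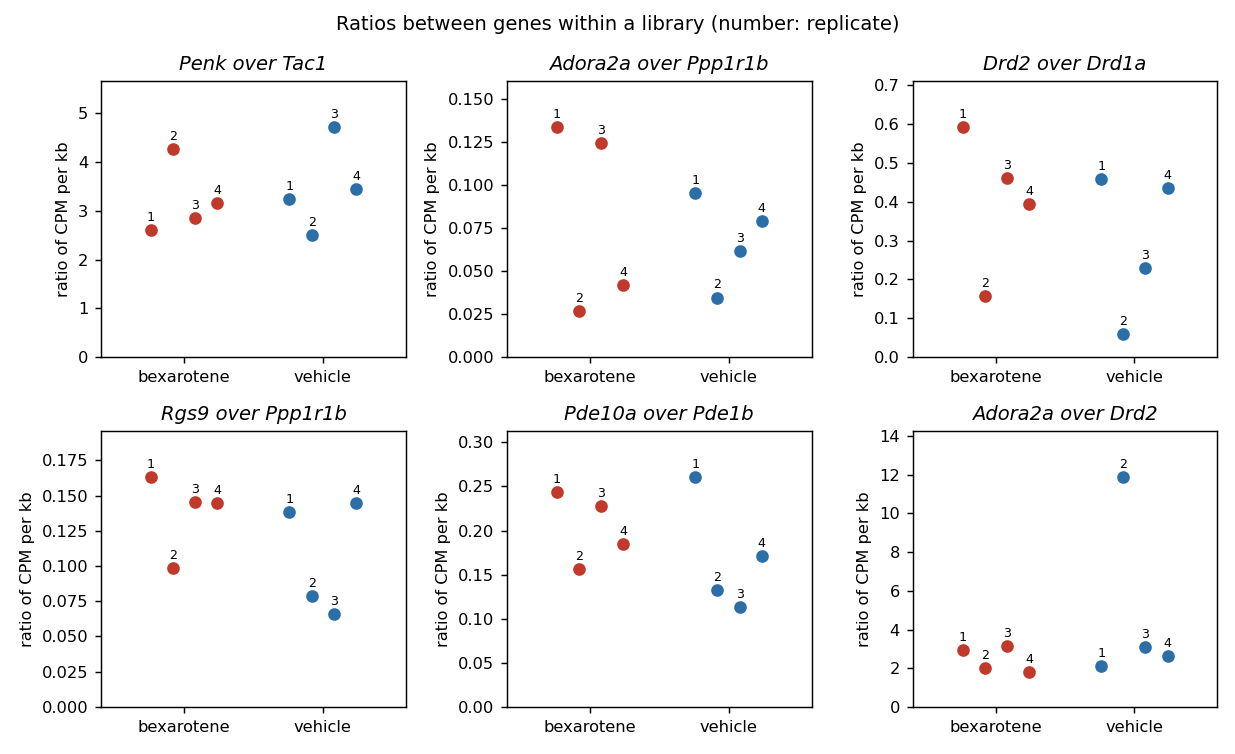
Ratios of CPM per kb between pairs of genes, with 1 point per library and its replicate number, on linear axes from 0. Penk over Tac1 varies between 2.51 and 4.72 in all libraries, while Adora2a over Ppp1r1b is highest in bexarotene replicates 1 and 3 and vehicle replicate 1, and Adora2a over Drd2 is 11.9 in vehicle replicate 2 and at most 3.16 elsewhere.

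Other genes of these neurons were taken from a pair of lists that share 8 members. Of 29 tested identity genes outside the 9, 25 were on the higher side under bexarotene by fitted value (median log2 fold change 0.37). In edgeR's quasi-likelihood test 0 were called in either direction and 0 had an unadjusted p below 0.05, and DESeq2 called 0 of the 22 with an adjusted p. The 3 high libraries were the 3 highest for 19 of the 29. Drd1a, the D1 receptor gene of the direct pathway, had 44.7, 11.6, 35.5 and 9.02 CPM with bexarotene and 27.3, 6.39, 13.6 and 10.9 CPM with vehicle, and a log2 fold change of 0.80 ± 0.64 (SE). Without bexarotene replicate 1 Drd1a was at 0.37, and without vehicle replicate 1 at 1.29. Six3, a transcription factor of striatal development chosen here after its values were seen, spanned 108-fold, from 16.8 CPM in bexarotene replicate 1 to 0.155 CPM in vehicle replicate 2. Scn4b, a sodium channel subunit, was at 134, 42.6, 83.7 and 72.0 CPM under bexarotene and 52.6, 41.8, 15.6 and 57.4 CPM under vehicle, and Pdyn, the dynorphin precursor of the direct pathway, had a log2 fold change of 0.61 ± 0.39. Without bexarotene replicate 1 Pdyn was at 0.21, and among libraries numbered 2 and 4 its difference was -0.36. Foxp1, chosen after its values were seen and also a gene of cortical neurons, went the other way, with its lowest level, 33.5 CPM, in vehicle replicate 1.

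Of 28 signalling genes of the dopamine, adenosine, opioid and cyclic AMP pathways, 20 had positive fitted values (median log2 fold change 0.13). In edgeR's quasi-likelihood test 0 were called in either direction and 1 had an unadjusted p below 0.05, and DESeq2 called 0 of the 23 with an adjusted p. That gene was Cnr1, the cannabinoid receptor, at 86.3, 112, 104 and 103 CPM under bexarotene and 129, 94.0, 142 and 174 CPM under vehicle, with a log2 fold change of -0.41 ± 0.17 (SE); edgeR gave it an adjusted p of 0.558. Without vehicle replicate 4 Cnr1 was at -0.26. The catalytic subunit of the phosphatase that DARPP-32 inhibits, Ppp1ca, had 0.15 ± 0.08. Adcy5, the main adenylyl cyclase of striatal neurons, was at 280, 113, 222 and 133 CPM under bexarotene and 202, 88.9, 138 and 148 CPM under vehicle. The 3 high libraries were the 3 highest for 13 of the 28 genes.

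Among retinoid receptors, the targets of bexarotene and its relatives, the 2 forms known for striatal expression followed the 9 genes. Rxrg was at 26.6, 5.15, 20.3 and 7.64 CPM under bexarotene and 16.1, 1.29, 8.82 and 8.19 CPM under vehicle, and Rarb at 16.4, 4.08, 11.7 and 5.42 against 9.71, 5.31, 6.40 and 6.90 CPM. Their log2 fold changes were 0.80 ± 0.77 and 0.41 ± 0.42 (SE). Rxrg was at 0.36 without bexarotene replicate 1, 0.44 without vehicle replicate 2, 1.29 without vehicle replicate 1 and 0.037 with the striatal covariate. Rarb was at -2.2e-05 without bexarotene replicate 1. In the fit on all libraries 0 of the 6 receptors were called by edgeR's test, 0 had an unadjusted p below 0.05 and DESeq2 called 0.

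Markers of other tissue and cell types were read in the same libraries. For cortical excitatory neurons, the 3 high libraries were the 3 lowest for 11 of 16 markers, against 6.53% of all genes tested; 15 of 16 had a negative log2 fold change (median -0.25). Of these, 0 were called by edgeR's test, 1 had an unadjusted p below 0.05, and DESeq2 called 0 of 15. Their summed level was 1347 to 2314 CPM under bexarotene and 1707 to 2281 CPM under vehicle, and 0 of 16 were at 0. Etv1, a gene of deep-layer neurons, had -0.62 ± 0.17 and groups that did not overlap.

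Cholinergic neuron markers, which mark a striatal interneuron and basal forebrain cells, were highest in the same 3 libraries in 5 of 5 tested genes. Summed over 7 markers they were at 1.93 to 36.4 CPM under bexarotene and 1.64 to 27.0 CPM under vehicle. Chat, which makes acetylcholine and was chosen after its values were seen, was at 8.07, 0.322, 5.34 and 0.480 CPM under bexarotene and 7.19, 0.310, 0.287 and 1.56 CPM under vehicle; Isl1 was at 0 in vehicle replicate 2, and Lhx8 in vehicle replicate 4. Dopamine neuron markers summed to 30.6 to 34.6 CPM and 20.5 to 37.4 CPM, and their transporter Slc6a3 was at 0.495 CPM or less, with 0 in vehicle replicate 2; En1 was at 0 in 4 vehicle libraries and Pitx3 in vehicle replicates 1 and 2. Aldh1a1, chosen after its values were seen, was the largest part of the dopamine neuron sum, at 10.9 to 22.5 CPM. The 3 high libraries were the 3 highest for 0 of 5 dopamine neuron markers tested. Thalamus markers were at 65.9 to 137 CPM and 74.0 to 122 CPM, with 3 of 8 highest in the 3 libraries, against 7.62% of all genes tested. The mean log2 CPM of the thalamus list followed that of the 9 genes with Pearson's r of 0.87. Its genes were split: r with the mean standardised log2 CPM of the 9 genes ran from 0.97 for Tcf7l2 to -0.87 for Ramp3. Ramp3 was chosen after its values were seen. Hippocampus markers had 150.2 to 275 CPM under bexarotene and 112 to 275 CPM under vehicle, with 0 of 8. The part of these other markers in the levels of the 9 genes was not tested.

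Choroid plexus markers did not share the pattern: they summed to 75.5 to 1464 CPM under bexarotene and 15.9 to 41.6 CPM under vehicle, with the peak in bexarotene replicate 2, a low library for the 9 genes. Markers of microglia (649 to 858 against 493 to 620 CPM), astrocytes (3224 to 3805 against 3303 to 4391 CPM), oligodendrocytes (799.6 to 1276 against 677 to 1457 CPM) and endothelium (170.3 to 218 against 129 to 193 CPM) were highest in the 3 libraries in 0, 1, 0 and 0 of 8 genes each. In edgeR's quasi-likelihood test 0 genes of these 5 lists were called. An unadjusted p below 0.05 was found for 6 of 8 microglia, 4 of 8 choroid plexus and 1 of 8 astrocyte markers, and for 0 of the oligodendrocyte and endothelial ones. All 8 microglia and all 8 choroid plexus markers had positive fold changes. The groups did not overlap for 5 and 2 of them, against 5.77% of all genes tested. Over all genes DESeq2 called 97. Of 8 microglia markers it called 3, the complement genes C1qa, C1qb and C1qc, with log2 fold changes of 0.66, 0.71 and 0.52. It also called Ttr, the transthyretin gene and the sole choroid plexus marker to which it gave an adjusted p, and 0 of the other 3 lists. C1qa and Ttr are named after their values were seen.

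**Figure D4:**
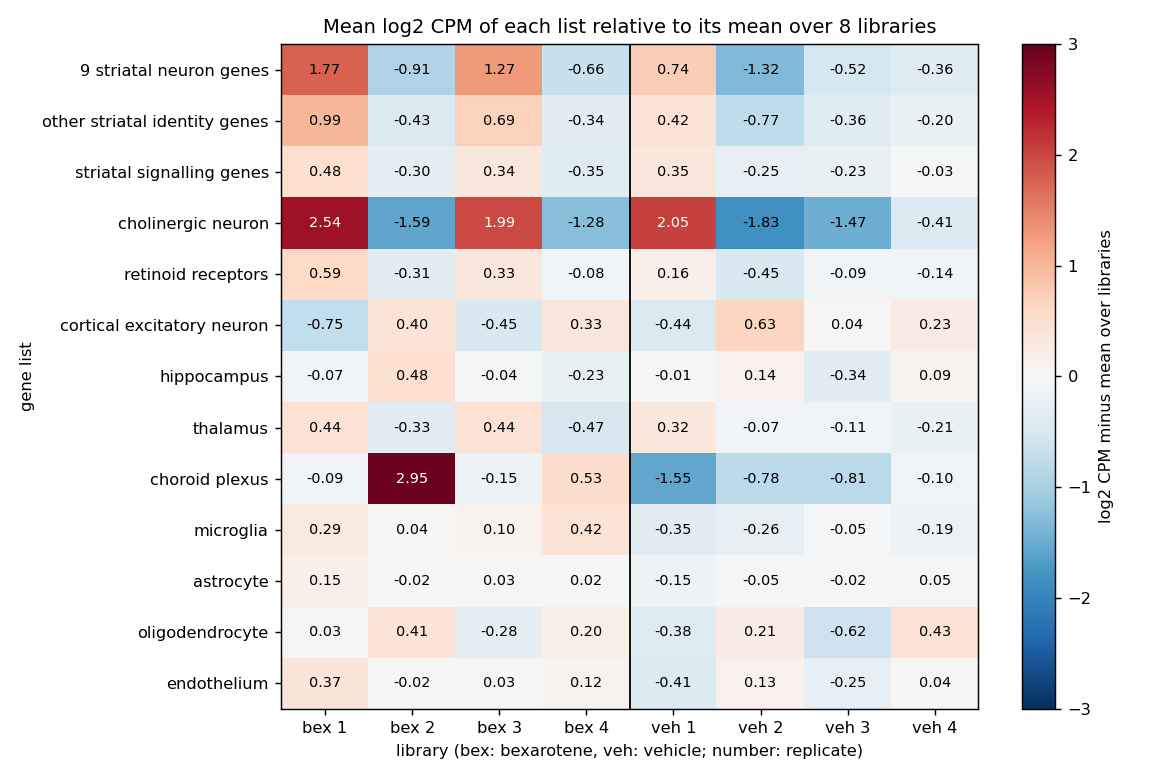
Mean log2 CPM of each gene list in each library, relative to the list's mean over 8 libraries, with the value printed in each cell. The 9 striatal neuron genes and the other striatal lists are positive in bexarotene replicates 1 and 3 and vehicle replicate 1. So are the cholinergic, retinoid receptor and thalamus lists, while the cortical excitatory list is negative there. The choroid plexus list peaks at 2.95 in bexarotene replicate 2.

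The genes most like the set were ranked by Pearson's r, over the 8 libraries, between their log2 CPM and the mean of the standardised log2 CPM of the 9 genes. Among 13966 other genes with a mean of at least 1 CPM, 238 had r above 0.9 and 296 below -0.9. The 10 highest were Gstm6 (0.99), 1700003D09Rik, Vat1, Ctxn2, Drd1a, Ugdh, Kcne1l, Adcy5, Samhd1 and Gm4980 (0.97). Of these, Drd1a and Adcy5 stood on the striatal lists. 1700003D09Rik spanned 4.74-fold, from 14.2 to 67.1 CPM, whereas Ugdh spanned 1.21-fold. Lowest were Cacnb4 and Usp25 (-0.99 each), then Slc6a17, A830010M20Rik and Epha4. Epha4, an ephrin receptor, spanned 2.83-fold in the opposite order, from 53.5 to 151 CPM. Of 47 striatal list genes at this level, 14 had r above 0.9 and their median was 0.81, against 0.037 for all candidates; all these values share the same 8 libraries.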

How the data were processed

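Cortex RNA was purified by RNeasy kit and turned into stranded TruSeq mRNA libraries, per the labels' protocols. The authors deposited raw read counts per RefSeq transcript for 8 libraries, 28644 rows in all, per the file headers and values; genome build mm9 and edgeR are named in the submitters' processing notes. The aligner, the counter and its strand setting were not given in the sources used here. All 8 columns of values were used, 0 left out, and groups and replicate numbers come from the titles.

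Members and gene lists were chosen with earlier results of these data known. edgeR 4.0.16 (R 4.3.3) fitted a quasi-likelihood F test with group as sole term to the 21285 rows that passed filterByExpr, using TMM factors and robust dispersions. Benjamini-Hochberg adjustment covered those rows, and 0.05 was the threshold. SE was derived from the F statistic. Log2 CPM used a prior count of 2. DESeq2 was 1.42.0. Transcript lengths came from GENCODE M21 by RefSeq accession (98.0% of tested genes). The scripts were tested on simulated data.

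Named genes are the 9 members, Drd1a, Rarb, Rxrg, up to 4 called or the 2 smallest-p genes of a list, and the 10 most alike and 5 most opposite genes. Other named genes were chosen after their values were seen. Single values of some list genes are not reported here.

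The titles number replicates 1 to 4 in both groups. After group means were subtracted, libraries sharing a number correlated over genes with r of 0.50, 0.36, 0.18 and 0.23, all above 0.1. Some libraries with unlike numbers correlated as much, such as bexarotene replicate 2 with vehicle replicate 4 (0.27). The numbers are therefore not shown to pair the libraries. The main fit ignored them, and a replicate block was fitted as an alternative only. Of the 4 bexarotene libraries 2 correlated more with another number than with their own: replicate 3 with vehicle replicate 1 (0.53) and replicate 4 with vehicle replicate 2 (0.32). Other alternatives were RLE factors, no filter, summed rows, a striatal covariate, a length offset and leaving out libraries.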

Additional observations from a re-analysis of the deposited data

Results flagged for a closer look

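Of 68 groups of 4 libraries examined, 6 had a library whose gap to its neighbour passed Dixon's criterion, which chance meets in about 1 in 20 groups. Adora2a over Drd2, as CPM per kb, was 11.9 in vehicle replicate 2, against 2.14 to 3.11 in the other vehicle libraries. Gpr6 over Drd2 was 10.2 in vehicle replicate 2 (others 0.515 to 1.26) and 1.43 in bexarotene replicate 2 (others 0.613 to 0.727). These 3 ratios share Drd2, which rested on 16 reads in vehicle replicate 2.

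Cholinergic neuron markers summed to 27.0 CPM in vehicle replicate 1, against 1.64 to 4.99 CPM in the other vehicle libraries. Dopamine neuron markers summed to 34.6 CPM in bexarotene replicate 1, against 30.6 to 31.2 CPM. Of that sum 21.0 CPM was Aldh1a1, which was at 17.6 to 19.6 CPM in the other bexarotene libraries. Choroid plexus markers summed to 1464 CPM in bexarotene replicate 2, against 75.5 to 227 CPM.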

How the results depend on the processing

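Under RLE factors, no low-count filter, summed rows, the length offset, DESeq2, the replicate block and each single library left out, all 9 fold changes stayed positive and 0 were called (under DESeq2, 0 of the 7 with an adjusted p). With single libraries left out, the median over the 9 genes was 0.45 to 1.38, over signalling genes 0.04 to 0.21 and over identity genes 0.11 to 0.58; Ppp1r1b ranged from 0.37 to 1.11, Rgs9 from 0.64 to 1.72, Drd2 from 0.49 to 2.13, Adora2a from 0.63 to 1.97, Penk from 0.45 to 1.38, Tac1 from 0.63 to 1.76, Pde10a from 0.26 to 1.18, Pde1b from 0.098 to 0.56 and Gpr6 from 0.24 to 1.30, each lowest without bexarotene replicate 1. With the replicate block the median over the 9 genes was 0.73 and with the length offset 0.81, and the block changed no call. In the block fit, edgeR's quasi-likelihood test gave Drd2 alone of the 9 genes an unadjusted p below 0.05. That p was 0.045, with an adjusted p of 0.479, and the next smallest was 0.053 for Pde1b. With the striatal covariate, Drd2 was at -0.028, Adora2a at -0.43, Penk at -0.0031, Pde1b at -0.041 and Gpr6 at -0.29; of the other named genes, Gbx2 was at -1.04, Tcf7l2 at -0.12, Rarb at -0.23, Gstm6 at -0.13, Ugdh at -0.0085, Kcne1l at -0.087, Adcy5 at -0.026, Samhd1 at -0.0061, Gm4980 at -0.095 and A830010M20Rik at 0.019, each opposite in sign to the fit without it. Drd1a was at 0.017, Pdyn at 0.14 and Rxrg at 0.037. Drd1a, Pdyn, Rarb and Adcy5 are themselves among the 28 genes averaged in the covariate, which in part fixes their values in that fit. The 9 genes are not among the 28, but their mean log2 CPM followed that of the identity list (Pearson's r 0.998). Their values near 0 are therefore largely fixed too. Samhd1 was at -0.012 with the length offset, and over single libraries left out Rarb ranged from -2.2e-05 (without bexarotene replicate 1) to 0.67 and Dsp from -0.11 (without bexarotene replicate 2) to 1.03.

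Without bexarotene replicates 1 and 3, chosen after seeing the data, Ppp1r1b was at -0.32, Rgs9 at -0.20, Drd2 at -0.93, Adora2a at -1.40, Penk at -0.58, Tac1 at -0.67, Pde10a at -0.35, Pde1b at -0.29 and Gpr6 at -0.97; the medians were -0.58 for the 9 genes, -0.13 for signalling and -0.30 for identity genes. Without vehicle replicate 1 as well, Ppp1r1b was at -0.033, Drd2 at -0.024, Adora2a at -0.81, Penk at -0.14, Tac1 at -0.14, Pde1b at -0.14 and Gpr6 at -0.50. These fits rest on 6 or 5 libraries; the cause was not tested. Over all genes, edgeR called 1 gene, 1 to 2 with a single library left out, 0 in both fits without the high libraries, and DESeq2 97. The depth limits Drd2 most, with 16 reads in vehicle replicate 2.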
